A study of Mus musculus with 4 samples.

Results

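The genes described here belong to families of enzymes that modify transfer RNA, measured in mouse 32D-EpoR cells with and without erythropoietin (Epo). They were taken by name, as the array names that begin with Trmt, Pus, Nsun, Tyw, Elp, Adat or Qtrt followed by the number or letter of a family member. The set therefore also holds partner subunits, and Nsun4 and Nsun5, whose known targets are ribosomal RNA. The names gave 48 of 55681 gene probes, under 32 names. Of them, 41 probes were kept, each well above background on both Epo arrays, both arrays without Epo, or all 4. The 7 others were second probes of Elp4, Nsun3, Nsun4, Nsun6 and Trmt61b and both probes of Nsun7, which therefore was not tested. This left 31 of the 17555 genes tested, and the probe that represents each of the 31 was well above background on all 4 arrays.

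32D-EpoR is a mouse myeloid line that grows on interleukin-3 and carries the receptor for Epo, the main hormone of red cell production. Cells in both groups were kept in medium with serum and WEHI-conditioned medium, then washed into medium with serum alone. One group then received Epo at 10 U/ml and the other received none. Each group had 2 arrays, 1 from each of 2 experiments on cells of different passages, and how long the cells were with Epo is not given.

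A transfer RNA carries an amino acid to the ribosome, and many of its bases and riboses are chemically changed after transcription. Changes in and next to the anticodon tune how codons are read, and changes in the body of the molecule help it fold and last. Some enzymes act alone, and others need a partner subunit that holds the RNA or activates the catalytic one.

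The 4 arrays lay on 1 slide. The 75th percentile of spot intensity, on which the arrays were scaled, was 347 and 454.3 units with Epo, against 223.7 and 250.5 without. All values below are log2 of the intensity after this scaling, so a change is relative to that percentile. Markers of myeloid progenitors were well above background on all arrays for 7 of 9 genes, with Kit below on all 4. Their summed scaled intensities were 98868 and 111941 units with Epo, against 121933 and 129019 without. Most of this sum was Ctsg, the brightest of them, which changed by -0.25 on the log2 scale. The changes of the others tested ran from -0.74 (Cebpa) to 0.75 (Cd34). Of 6 erythroid markers 3 were above background throughout and Alas2 on no array, with sums of 7982 and 8168 with Epo, against 11411 and 13043 without. Most of the erythroid sum was Gata1, which changed by -0.68 on the log2 scale, while Klf1 changed by -0.10 and Hba-a1 by -0.19. All 4 macrophage markers were above background, with sums of 4475 and 4795 with Epo, against 3669 and 3592 without; among them Adgre1 changed by 1.03 and Csf1r by -0.79 on the log2 scale. Of 4 lymphoid markers Cd3e alone was above background throughout (log2 change -1.14), and the list summed to 222 and 204 with Epo, against 545 and 402 without. Of 4 stromal ones this held for Pdgfrb alone (-2.45), with sums of 53.9 and 69.1 with Epo, against 265 and 279 without. Their part in the results below was not tested, and in bulk RNA a change in cells cannot be told apart from a change in RNA per cell.

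With Epo, 16 of the 31 tRNA modification genes rose, 1 fell and 14 did not pass the test. Trmt61a, the catalytic subunit of a tRNA adenosine methyltransferase, had the largest change, 9.18-fold higher. It was followed by Qtrt2, a subunit of the enzyme that inserts the queuosine precursor (4.05-fold), and by Pus7l, a relative of the pseudouridine synthase Pus7 (3.24-fold). The one gene that fell was Nsun6, a tRNA cytosine methyltransferase, at 0.57 of the level without Epo.

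The test was limma's moderated test over all 17555 genes, with Benjamini-Hochberg adjustment and a threshold of 0.05. In it 13.1% of all genes tested were called higher and 14.3% lower. The median log2 change of the 31 genes was 0.58, against -0.06 over all genes tested. Of the 16 rises, 11 were at least 2-fold, which 5.62% of all tested genes reached. Both arrays with Epo lay above both without for 23 of the 31 genes, and below for 3. Over all genes tested those shares were 30.4% and 38.4%. Every one of the 17 called genes changed in the same direction in both replicate numbers. A call on 2 arrays per group nearly requires this, so it adds no support. With the replicate number as a block, 19 of the 31 were called higher and 2 lower, where 19.9% and 23.2% of all genes were. No call was lost, and the 4 added genes are named below. All 17 calls were lost when probes at background were kept in the fit, where adjusted p-values of these genes lay between 0.108 and 0.179.

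**Figure D1:**
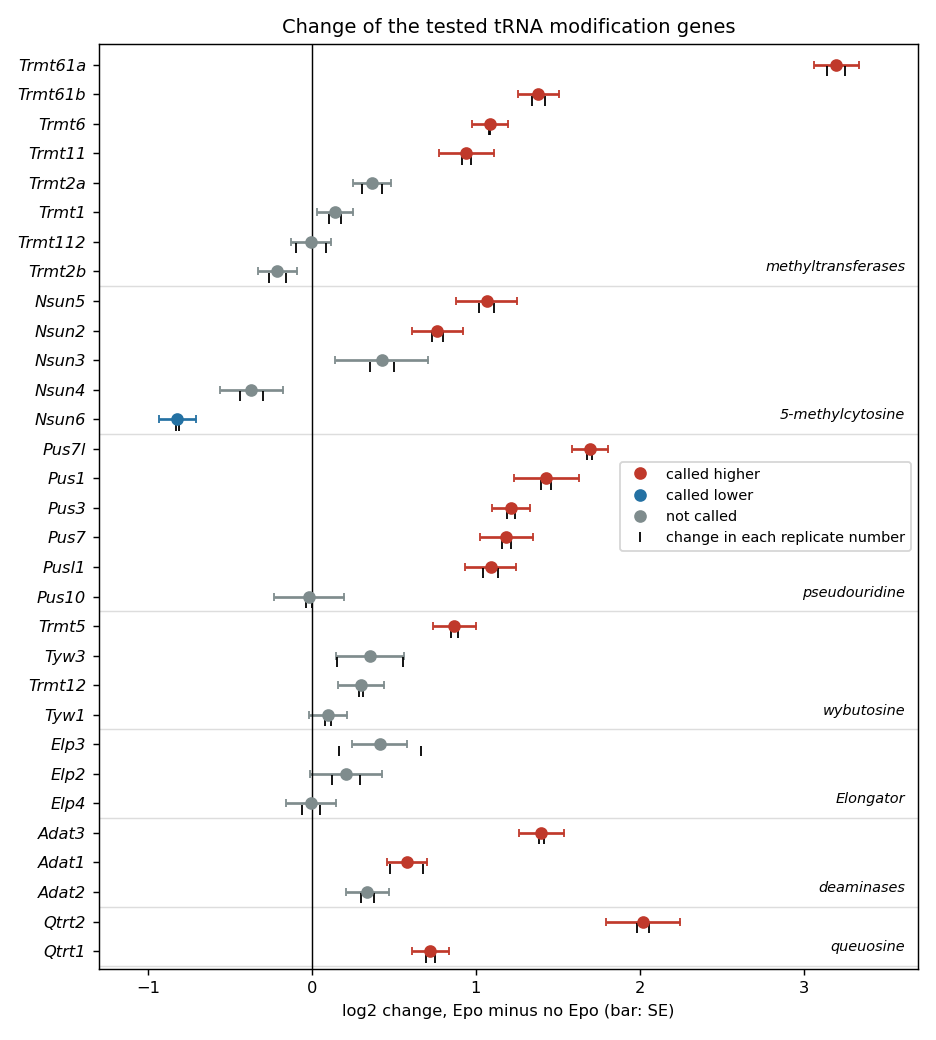
Log2 change (Epo minus no Epo) of the 31 tested tRNA modification genes on the horizontal axis, with the SE of the limma fit as bars, grouped by role. Short black ticks show the change within each replicate number. Red points were called higher (16 genes), blue lower (Nsun6), and grey points did not pass the test. Trmt61a lies farthest right at 3.20, and the 3 Elongator subunits tested under these names hold no called gene.

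**Figure D2:**
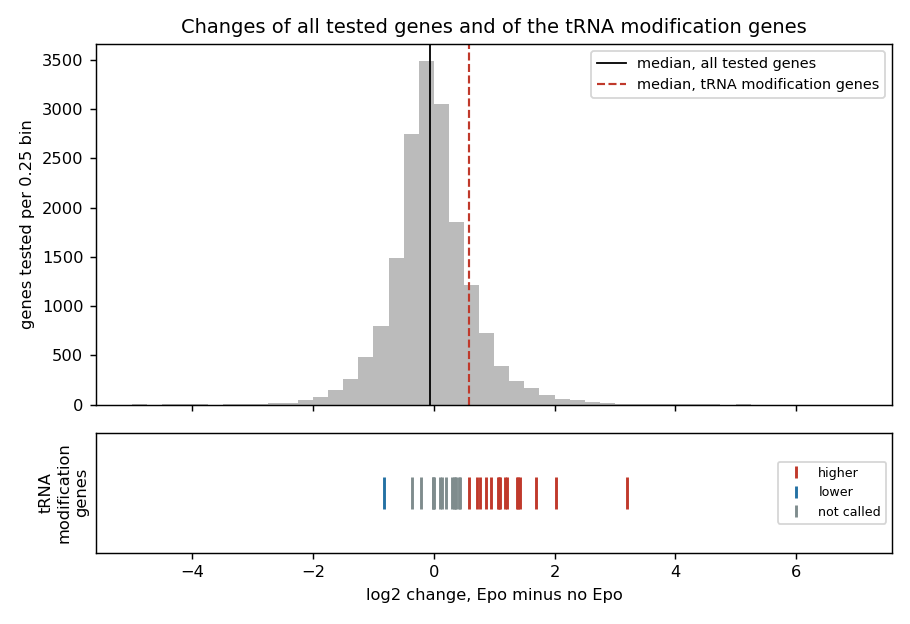
Above, the number of all 17555 tested genes per bin of log2 change (Epo minus no Epo, bins of 0.25), with the median of all genes (-0.06) and of the tRNA modification genes (0.58) as vertical lines. Below, each tick is 1 of the 31 tRNA modification genes on the same axis, coloured by its call. The ticks run between -0.82 and 3.20, with 6 of the 31 below 0.

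Promoter windows were available for 24 of the 31 genes, as 250 bases before to 50 after the annotated starts in RefSeq (GRCm38.p6). They were searched for 4 motifs on both strands. These were the E-box CACGTG, to which Myc and other basic helix-loop-helix factors are known to bind, the STAT motif TTCNNNGAA, the NRF1 core CGCATGCG and the ETS core CCGGAAG. No motif contains another. The E-box was present in 7 of the 13 genes that rose and have a window, in 0 of 10 that did not pass the test, and not in Nsun6. It was present in 11.7% of the 9507 tested genes with a window and in 15.7% of the 1414 of them called higher. Of all 27025 genes with a window, tested or not, 8.09% held it. The 7 genes are shown because they hold the 8 E-boxes found, which are in capitals within 30 bases of the gene's own strand, 5′ to 3′.
Trmt61a (chr12:111678118-111678147, plus strand): ccgccgtggagcCACGTGtggagccgggag
Trmt61b (chr17:71598753-71598782, minus strand): gtggctacgtcaCACGTGtgcgacagcacc
Pus1 (chr5:110780576-110780605, minus strand): tccgccttcgtgCACGTGgtcagcttcggg
Pus3 (chr9:35558416-35558445, plus strand): tctcgcccctggCACGTGctgccacccccg
Pus7 (chr5:23783666-23783695, minus strand): ggcgcagcgccgCACGTGtgcgagcccggc
Pusl1 (chr4:155891718-155891747, minus strand): tcgaccgcgggcCACGTGcaagcgccccgc
Qtrt1, first site (chr9:21411777-21411806, plus strand): tagctctcagatCACGTGattcggggcacc
Qtrt1, second site (chr9:21411822-21411851, plus strand): gtggtctcaggcCACGTGgttccgggactg

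The E-box lay 25 bases after the start of Trmt61a and 27 after that of Pusl1. In Pus1 it lay 3 bases after 1 annotated start and 22 after another. In Pus7 it lay 28 bases after 1 annotated start, and in Trmt61b 9 bases before 1. Another window of Pus7 and of Trmt61b held no E-box. It lay 132 bases before the start of Pus3, and 48 and 3 before that of Qtrt1. Of the other motifs, the STAT motif was in 1 of the 13 genes that rose and in 1 of 10 that did not pass, against 8.55% of tested genes. The NRF1 core was in 0 of 13 and 0 of 10, against 4.43%. The ETS core was in 4 of 13 and 2 of 10, against 20.9%. Nsun6 held the STAT motif and the ETS core. A match describes these letters only and shows no binding, and the differences between these shares were not tested.

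Among the Trmt methyltransferases outside the wybutosine pathway, 4 of 8 rose and 4 did not pass the test. Trmt61a and Trmt6 together form the enzyme that methylates an adenosine in the T loop of cytosolic tRNA, and both rose. The Trmt61a probe, at chr12:112922052-112922111 on the plus strand of mm9, read 12.73 and 12.96 with Epo, against 9.59 and 9.71 without (log2 scaled signal). The change was 3.20 ± 0.14 (SE, adjusted p = 0.00313), and the groups lay far apart compared with the gap between replicates. Before scaling, the intensities were 7704 and 11806 units with Epo, against 562 and 683 without. Trmt6, the partner subunit without catalytic activity of its own, read 10.14 and 10.16 with Epo, against 9.06 and 9.07 without. Its change was 1.09 ± 0.11 (adjusted p = 0.00728), with almost no gap between replicates. A second Trmt6 probe changed by 0.86 and did not pass the test over probes (adjusted p = 0.0525).

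Trmt61b, which makes the same kind of methylation in mitochondria, read 7.97 and 7.82 with Epo, against 6.55 and 6.47 without. It rose by 1.38 ± 0.12 (adjusted p = 0.00623), or by 0.85 with normexp background correction. The array lists the Trmt61b probe under a non-coding RefSeq transcript. Trmt11, the catalytic subunit of a tRNA guanosine methyltransferase, read 11.83 and 11.54 with Epo, against 10.86 and 10.62 without. It rose by 0.94 ± 0.17 (adjusted p = 0.0215), a call lost without Epo replicate 1 (0.0771) or no Epo replicate 2 (0.0546). Trmt112, the subunit that activates Trmt11 and other methyltransferases, read 13.60 and 13.61 with Epo, against 13.70 and 13.53 without. The groups overlapped, with a change of -0.01 and an interval of 95% confidence from -0.33 to 0.32. The other 2 Trmt112 probes changed by 0.07 and 0.20 and did not pass either.

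Trmt2a, which methylates a uridine in the T loop, read 12.53 and 12.57 with Epo, against 12.22 and 12.14 without. The groups did not overlap, but its change of 0.37 ± 0.11 did not pass (adjusted p = 0.0764, or 0.0451 with the replicate block). Trmt2b, the mitochondrial counterpart of Trmt2a, read 12.80 and 12.78 with Epo, against 13.06 and 12.94 without. Both arrays with Epo were lower, by 0.21 ± 0.12 on average (adjusted p = 0.24). A second Trmt2b probe changed by -0.31 and did not pass over probes (adjusted p = 0.251). Trmt1, which dimethylates a guanosine between the arms of the tRNA, changed by 0.14 ± 0.11 (adjusted p = 0.385). A second, dimmer Trmt1 probe changed by 0.62, with an adjusted p over probes of 0.0611.

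The Nsun enzymes methylate cytosines, and 2 of the 5 tested rose, 1 fell and 2 did not pass. Nsun2, which acts on many cytosolic tRNAs, read 13.58 and 13.79 with Epo, against 12.78 and 13.05 without. It rose by 0.77 ± 0.16 (adjusted p = 0.029). The call was lost without Epo replicate 1 (0.0652), Epo replicate 2 (0.114) or no Epo replicate 1 (0.0709). Nsun5, whose known target is ribosomal RNA, read 10.96 and 11.24 with Epo, against 9.85 and 10.22 without. It rose by 1.07 ± 0.19 (adjusted p = 0.0209), a call lost without Epo replicate 2 (0.0623).

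Nsun6, which methylates a cytosine near the end of a few tRNAs, was the single member called lower. Its probe, at chr2:14917509-14917568 on the minus strand of mm9, read 6.84 and 6.88 with Epo, against 7.66 and 7.71 without. It fell by 0.82 ± 0.11 on the log2 scale (adjusted p = 0.0122), in both replicate numbers. The fall is relative to the scaling: the unscaled change was -0.07, and the call was also lost without Epo replicate 1 (0.0621) or Epo replicate 2 (0.0539). A second kept probe of Nsun6 changed by -0.36 and did not pass over probes (adjusted p = 0.0914). Nsun3, which starts a modification of the mitochondrial methionine tRNA, had overlapping groups and a change of 0.43 ± 0.28 (adjusted p = 0.312, or 0.038 with the replicate block). Nsun4, whose known target is mitochondrial ribosomal RNA, read 8.71 and 8.97 with Epo, against 9.01 and 9.41 without. Its change was -0.37 ± 0.19 (adjusted p = 0.212, or 0.0464 with the block).

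The pseudouridine synthases turn uridine into its isomer pseudouridine, and 5 of the 6 tested rose. Pus7l read 9.58 and 9.59 with Epo, against 7.90 and 7.88 without, and rose by 1.69 ± 0.11 (adjusted p = 0.00436). Pus1, which modifies several positions in cytosolic and mitochondrial tRNA, read 11.80 and 11.47 with Epo, against 10.40 and 10.01 without. It rose by 1.43 ± 0.20 (adjusted p = 0.0129), and replicate 1 was the higher one in each group. Pus3, which acts in the anticodon arm, read 11.77 and 11.72 with Epo, against 10.58 and 10.48 without, and rose by 1.21 ± 0.12 (adjusted p = 0.00671).

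Pus7 modifies tRNA and messenger RNA. It read 12.84 and 12.56 with Epo, against 11.62 and 11.41 without, and rose by 1.19 ± 0.16 (adjusted p = 0.012). Pusl1, a relative of Pus1, read 9.41 and 9.59 with Epo, against 8.27 and 8.55 without. It rose by 1.09 ± 0.15 (adjusted p = 0.0132). For all 5 genes the lowest array with Epo was above the highest array without, as it was for every other member called higher. With any 1 array left out, each of the 5 still rose by at least 0.95. Pus10, which acts in the T loop, had overlapping groups, with a change of -0.02 and an interval from -0.58 to 0.55.

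**Figure D3:**
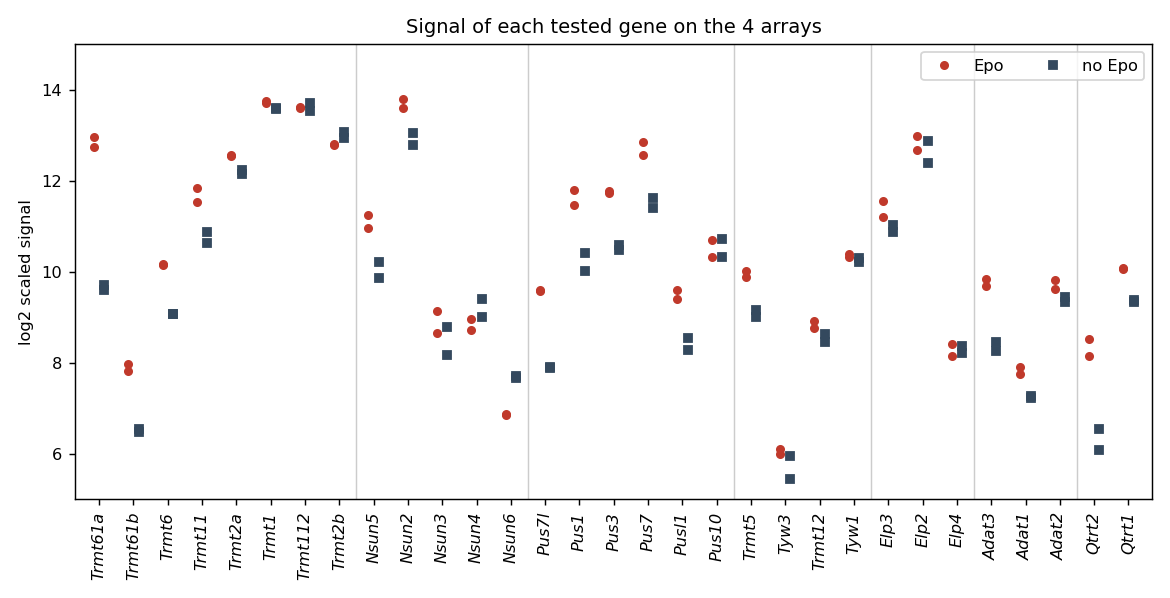
Log2 scaled signal of the 31 tested tRNA modification genes on each of the 4 arrays, Epo (red circles) left of no Epo (dark squares) for each gene, in the order of roles used for the changes. Levels of different genes are of different probes and are not comparable. Trmt61a shows the widest gap, with 12.73 and 12.96 against 9.59 and 9.71, and for Trmt112 and Pus10 the groups overlap.

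Wybutosine is a bulky guanosine derivative next to the anticodon of phenylalanine tRNA, built in steps. Of its 4 genes taken here, 1 rose and 3 did not pass. Trmt5, which adds the first methyl group, read 10.01 and 9.88 with Epo, against 9.17 and 8.99 without. It rose by 0.87 ± 0.13 (adjusted p = 0.0149), a call lost without Epo replicate 1 (0.0682), and its second probe rose by 1.08. Tyw1, which forms the ring system, changed by 0.10 ± 0.12 (adjusted p = 0.56). A second, dimmer Tyw1 probe changed by 0.52 and did not pass over probes (adjusted p = 0.121). Trmt12, which acts after Tyw1, read 8.75 and 8.93 with Epo, against 8.44 and 8.64 without. Its change of 0.30 ± 0.14 did not pass (adjusted p = 0.176), nor did that of the methyltransferase Tyw3, 0.35 ± 0.21 (adjusted p = 0.258).

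Elongator starts the modification of the wobble uridine, and none of the 3 subunits tested under these names passed. Elp3, the catalytic subunit, read 11.19 and 11.54 with Epo, against 11.03 and 10.88 without. Its change of 0.41 ± 0.17 (adjusted p = 0.135) was uneven, 0.16 in replicate 1 and 0.66 in replicate 2. Elp2, a scaffold subunit, changed by 0.21 ± 0.22 (adjusted p = 0.512). Elp4, of the accessory ring of the complex, changed by -0.01, with an interval from -0.41 to 0.39. Another kept probe of Elp4 changed by 0.26 and did not pass over probes (adjusted p = 0.364).

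The Adat enzymes deaminate adenosine to inosine. Adat2 and Adat3 form the enzyme that acts at the wobble position, with Adat2 as the catalytic subunit, and Adat1 acts beside the anticodon of alanine tRNA. Adat3 read 9.68 and 9.84 with Epo, against 8.26 and 8.45 without, and rose by 1.40 ± 0.14 (adjusted p = 0.00695). Adat2 read 9.63 and 9.81 with Epo, against 9.33 and 9.43 without. Its groups did not overlap, but the change of 0.34 ± 0.13 did not pass (adjusted p = 0.12, or 0.046 with the replicate block). Adat1 read 7.90 and 7.74 with Epo, against 7.22 and 7.27 without, and rose by 0.58 ± 0.12 (adjusted p = 0.0322). This is the smallest of the 16 rises, and the call was lost without any 1 array, with adjusted p-values of 0.18 without Epo replicate 1, 0.0941 without Epo replicate 2, 0.0876 without no Epo replicate 1 and 0.0839 without no Epo replicate 2. The call was also lost with the percentile taken over detected probes (0.45, adjusted p = 0.051). Its change was 0.38 with normexp background correction, and its second probe rose by 0.92.

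Queuosine replaces a guanosine at the wobble position of several tRNAs, and both subunits of the inserting enzyme rose. Qtrt2, listed on the array as Qtrtd1, has its probe at chr16:43861881-43861940 on the minus strand of mm9. It read 8.52 and 8.14 with Epo, against 6.53 and 6.08 without, and rose by 2.02 ± 0.22 (adjusted p = 0.00852). Qtrt1, the catalytic subunit, read 10.06 and 10.08 with Epo, against 9.37 and 9.33 without. It rose by 0.72 ± 0.11 (adjusted p = 0.0153), a call lost without Epo replicate 1 (0.0772), Epo replicate 2 (0.0772) or no Epo replicate 2 (0.0506).

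Subunits of 1 enzyme were compared in 4 pairs, by the difference of their log2 changes. Trmt61a changed by 2.11 more than Trmt6, with 2.06 and 2.16 in the replicate numbers. Qtrt2 changed by 1.30 more than Qtrt1 (1.29 and 1.30), although by 0.72 more with normexp background correction. Adat3 changed by 1.06 more than Adat2 (1.11 and 1.01), and Trmt11 by 0.95 more than Trmt112 (1.07 and 0.83). Each difference was in the same direction in both replicate numbers. An exact two-sided permutation test gave p = 0.333 for each pair (0.333 adjusted over the 4), the smallest that 2 arrays against 2 allow.

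How many of these genes were called depended on the scaling. Without scaling, the median of all genes tested was 0.68 and 46.9% were called higher. The median of the tRNA modification genes was then 1.32, with 28 of 31 called higher and 0 lower (limma, also 0 lower at an unadjusted p under 0.05). Scaling to a percentile moves every gene of an array by the same amount, so the distance of their median from that of all genes, 0.64, is the same with and without it. The distance was 0.66 after quantile normalization, with 26 of the 31 genes above the median of all genes, and 0.59 with normexp, with 27 above it. Elp4, Trmt112 and Pus10, near 0 after scaling, changed by 0.74, 0.74 and 0.73 without it.

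**Figure D4:**
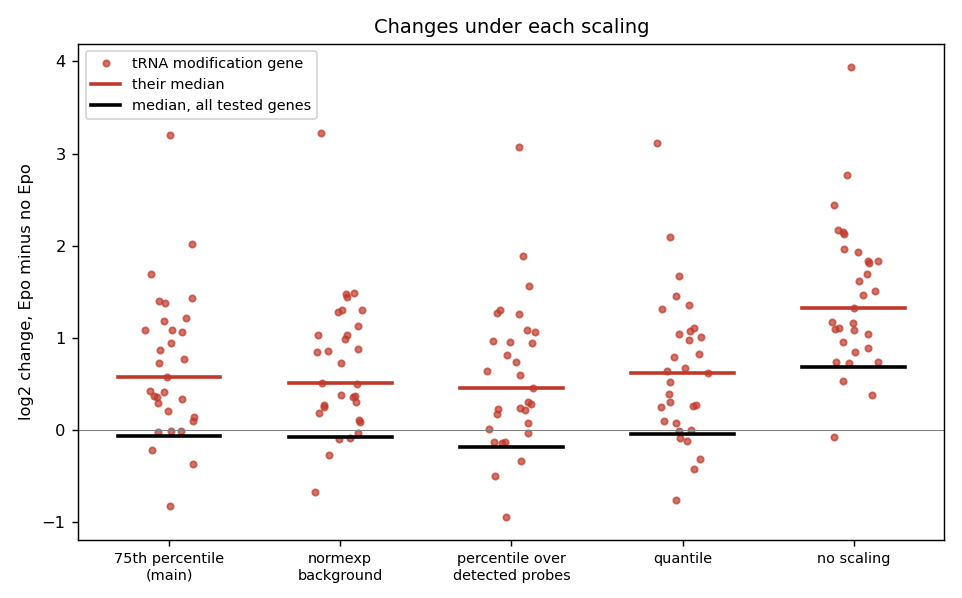
Log2 change (Epo minus no Epo) of the 31 tRNA modification genes (points) under 5 scalings, with their median (red line) and that of all tested genes (black line). Points are spread sideways for legibility only. Without scaling, both medians move up together, to 1.32 and 0.68.

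A list of other tRNA modification genes that do not carry these names held 52 genes on the array, of which 51 were tested and Rpusd2 was at background. With Epo 24 rose, 2 fell and 25 did not pass, where 13.1% and 14.3% of all genes were called higher and lower. Their median log2 change was 0.50. The rises of Yrdc, Wdr4, Trmt10c, Kti12, Trp53rkb, Thumpd1 and Rpusd4 kept their call without any 1 array, whereas the other 17 rises and both falls were lost in at least 1 such fit, which left 10 to 19 rises. With the replicate block Trmt44 was lost (adjusted p = 0.0523), and Dph3, Ftsj1, Nfs1 and Dus3l were added as higher and Osgepl1 as lower. Yrdc, which makes the threonyl-carbamoyl precursor for the adenosine next to the anticodon, had the largest rise. It read 11.22 and 10.85 with Epo, against 9.13 and 8.45 without, and rose by 2.25 ± 0.28 (adjusted p = 0.0101). Trp53rkb, a kinase subunit of the complex that attaches that group, rose by 1.21. Osgep, the catalytic subunit of the same complex, did not pass with a change of -0.29 (adjusted p = 0.13), nor did Tprkb, Lage3 or Gon7. Trit1, which adds an isopentenyl group to an adenosine there, rose by 0.66.

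Of the 18 methylation genes tested, 10 rose, 1 fell and 7 did not pass. Wdr4 and Mettl1, the partners that methylate a guanosine in the variable loop, rose by 1.43 ± 0.13 and 0.99 ± 0.20. Trmt10c, a methyltransferase that is also a subunit of mitochondrial RNase P, rose by 1.36, and its relative Trmt10a by 0.97. The smaller rises were those of Trmt13 (0.95), Mettl2 (0.91), Thumpd3 (0.80), Trmt44 (0.67), Mettl8 (0.61) and Alkbh8 (0.50). Bcdin3d, a methyltransferase that acts on the end of histidine tRNA, read 10.73 and 10.61 with Epo, against 11.40 and 11.44 without. It fell by 0.75 ± 0.12 (adjusted p = 0.016), and without scaling its change was -0.00187. The call was lost without Epo replicate 1 (0.0616), Epo replicate 2 (0.084) or no Epo replicate 2 (0.0506).

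Of the dihydrouridine synthases Dus4l rose by 1.34, Dus2 by 0.71 and Dus1l by 0.63, and Dus3l did not pass (0.39). Among genes of the wobble uridine and its thiolation, the Elongator regulator Kti12 rose by 1.35, and the thiolation partners Ctu1 and Ctu2 by 0.93 and 0.77. Nat10, which acetylates cytidine, rose by 0.80 and its tRNA adaptor Thumpd1 by 1.13. Of the other pseudouridine synthases Rpusd4 rose by 0.89 and Trub1 by 0.66, and Rpusd3 fell by 0.58 (adjusted p = 0.0449). The call of Rpusd3 was lost without Epo replicate 1 (0.192), Epo replicate 2 (0.119) or no Epo replicate 2 (0.141), and without scaling its change was 0.16.

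**Figure D5:**
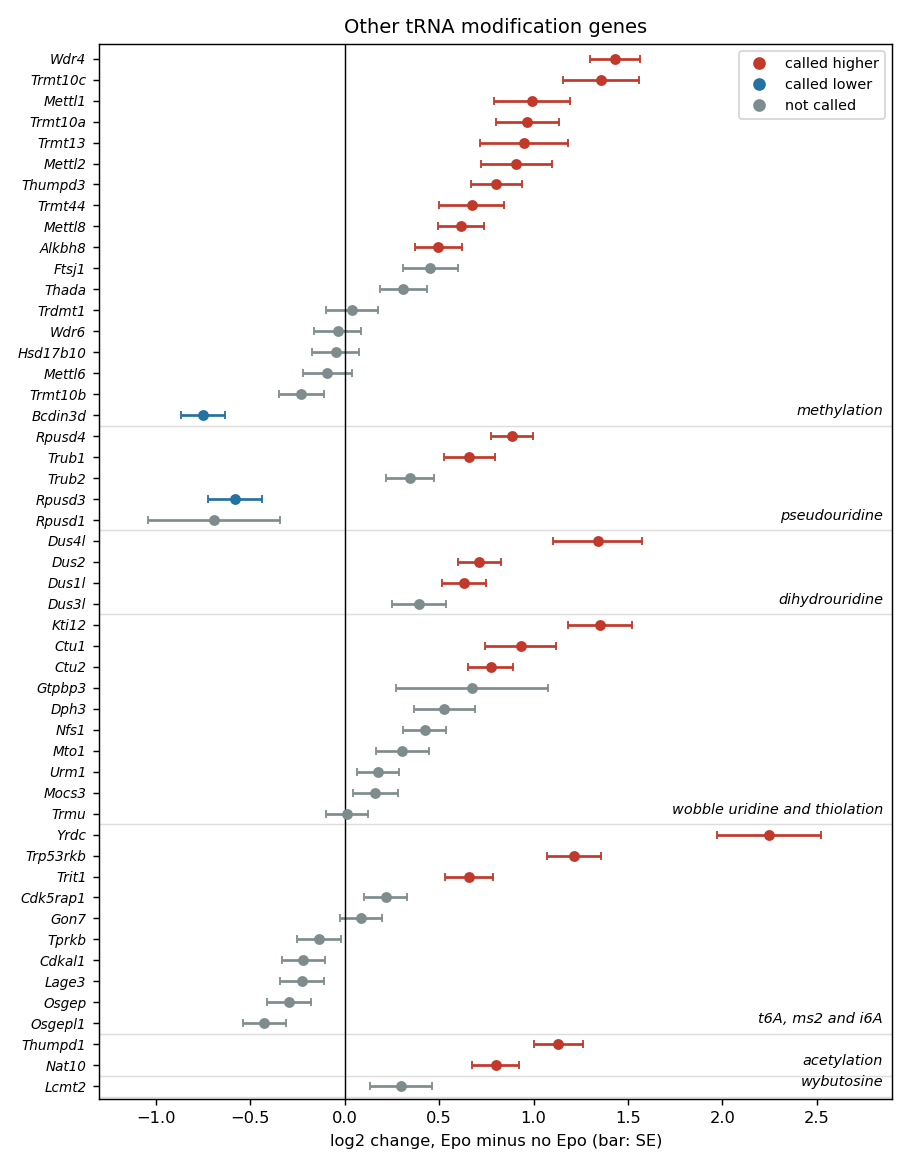
Log2 change (Epo minus no Epo) with SE bars of other tRNA modification genes tested, all but 1 of the list, grouped by the modification they serve. Red points were called higher, blue lower (Bcdin3d and Rpusd3), and grey did not pass. Yrdc lies farthest right at 2.25.

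The name rule misses 10 tested genes whose present symbol would fit it, 6 of which are in that list. Of the other 4, the Elongator subunit Elp5, listed as Rai12, rose by 0.43 (adjusted p = 0.0492), a call lost without any 1 array (0.134 to 0.244). Elp6 changed by -0.01, Trmt1l by 0.05 and Tyw5 by 0.57, and none of them passed (Tyw5 did with the replicate block, at 0.0306). With all 10 added, 22 of 41 genes were called higher and 1 lower.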

How the data were processed

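Total RNA (200 ng, labelled with Cy3, per the labels' protocols) was hybridised to 4 single-colour Agilent arrays, 2 per group. The deposited values are the scanner software's processed intensity per spot, and for 1 alternative the mean and local background intensity, which the file headers credit to Feature Extraction 10.1.1.1. Among tools, limma is listed in the submitters' processing notes, its version not given. The number of arrays limits the precision, and the p-values rest on 2 experiments.

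Log2 intensities were scaled to the 75th percentile of 59305 non-control spots. Outlier spots were left out (9 probes), and no spot was saturated. A gene was the kept probe with the highest mean. limma 3.58.1 (R 4.3.3, lmFit and eBayes, two-sided) was run on all 17555 genes, with 2 residual degrees of freedom. Names were updated through RefSeq (GRCm38.p6): of 55681 probes 26413 matched by accession, 3859 by symbol, 735 by synonym, and 24674 kept the array name. Probe positions are on mm9, as in the files. No annotation of that build was used, so exon or intron is not given.

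Replicate numbers were read as the 2 experiments that the series' design text describes, which pairs the samples. Across genes, the deviations of samples that share a number correlated at 0.386. The block left 1 residual degree of freedom.

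The members and lists were chosen with earlier results of these data known. Every tested member is named. Values per array are given for called members and for the 6 others with the smallest p, and called genes of the other list are named, except 1 that is not reported here. The 14 alternatives covered background, scaling, filter, probe choice, unit, block, variance model and each array left out. The steps were tested on simulated data, and a gene that did not pass the test may still have changed.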

Additional observations from a re-analysis of the deposited data

How the results depend on the processing

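The median log2 change of the 31 tRNA modification genes was 0.51 with normexp, 0.45 with the percentile over detected probes, 0.62 after quantile normalization, 0.72 with probes averaged, 0.50 with no filter on dim probes, 1.32 with no scaling, and 0.59 to 0.67 with 1 array left out. With no scaling, limma called 28 of them higher and 0 lower, 8231 and 364 of all genes, and 39 and 0 of the 51 related genes (also 0 lower at an unadjusted p under 0.05 in both lists). Elp4 (0.74), Pus10 (0.73), Trmt112 (0.74), Elp6 (0.73) and Rpusd3 (0.16) then lay above 0, since this leaves out the shift between arrays. With no filter, 36310 genes were tested and limma called 0 higher and 0 lower in all 3 sets. At an unadjusted p under 0.05 there were 16 higher and 2 lower of 32 tRNA modification genes, 2528 and 4620 of all genes, and 23 and 2 of 52 related genes. With probes averaged, 1 related gene was called lower. With 1 array left out, 11 to 14 tRNA modification genes were called higher and 0 to 1 lower, 1098 to 2017 and 1175 to 1946 of all genes, and 10 to 19 and 0 to 2 of the related genes (unadjusted 1 to 2 lower and 2 to 3 lower in the 2 lists).

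With the replicate block, limma called 2 tRNA modification genes lower, and 3497 higher and 4068 lower of all genes, on 1 residual degree of freedom. Of the 16 rises, 10 kept their call under every alternative except no filter. The symbol rule on updated names was chosen after seeing the data.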
